A study of Mus musculus with 23 samples.

Results

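Mitochondrial ribosomal proteins were measured as a group in the hypothalamus of obese, diabetic mice given celastrol or its vehicle. The group was every gene whose symbol begins with Mrpl or Mrps followed by a digit and that had a probe set of its own on the array. This gave 77 of the 18704 genes measured, 48 named as large subunit proteins (Mrpl) and 29 as small subunit proteins (Mrps). RefSeq lists 78 such protein-coding genes in the mouse. The remaining one, Mrpl53, lay in a probe set that also names Ccdc142 and was not analysed here. Where a gene had more than 1 probe set, the brightest on average was used.

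The 23 arrays held RNA of hypothalamus from male db/db mice, 8 weeks old and on normal chow for 2 weeks. These mice lack a working long-form leptin receptor, and every group carried that genotype, vehicle groups included. Vehicle mice received DMSO by intraperitoneal injection (25 µl per day), and the other mice received celastrol, a triterpene from the thunder god vine. The celastrol dose is stated as 250 µg/kg for the 6 h group, with no dose in the labels used here for 1 day and 4 days. The times were 6 h, 1 day and 4 days, giving 6 groups of 4 arrays except 3 for celastrol at 6 h. The labels call the samples biological replicates without saying whether each was 1 animal or a pool, so p-values measure the spread between these samples. Values are log2 expression after RMA, and array medians lay between 8.57 and 8.64. The 18 hypothalamic marker genes, among them Pomc, Npy, Avp and Hcrt, averaged 10.384 to 10.609 in every array. The vehicle arrays 6 h replicates 2 and 4, 1 day replicate 1 and 4 days replicate 2 held the pituitary hormone gene Prl above 9. With so few arrays per group the precision was limited: the median 95% confidence half-width of a difference was 0.145 at 6 h and 0.134 at both later times.

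Mitochondria carry their own ribosome, which translates the few proteins encoded by mitochondrial DNA, all of them core parts of the respiratory chain or ATP synthase. Its RNA is made inside the organelle, whereas all its proteins are encoded in the nucleus, translated in the cytosol and imported. Several proteins descend from bacterial ribosomal proteins, such as those of the decoding site, the exit tunnel and the stalks, and others exist only in mitochondria. Names do not always give the position: Mrps18a and Mrps30 are parts of the large subunit, and Mrps36 is now known as a subunit of the 2-oxoglutarate dehydrogenase complex. Counts and means by subunit below follow the symbols, so they place Mrps18a, Mrps30 and Mrps36 among the small subunit genes. Neurons rely on oxidative phosphorylation, and inherited defects in several of these genes cause combined respiratory chain deficiencies.

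Genes for mitochondrial ribosomal proteins often have short promoters without a TATA box that bind the nuclear respiratory factors NRF1 and GABP (an ETS factor) and YY1. RefSeq promoter windows of build GRCm38.p6, from 250 bases before to 50 bases after the start, matched 68 of the 77 genes. A gene was counted if any of its windows held a match, and 3 of the 68 had several windows. Searched on both strands, the NRF1 motif occurred in 13 of the 68 genes (19.1%), against 5.2% of all 27025 genes with a window. The ETS letters CCGGAAG occurred in 25 (36.8% against 9.9%), and the YY1 letters AAGATGGC in 12 (17.6% against 3.2%). At least 1 of these was present in 42 of the genes. The SP letters GGGGCGGGG occurred in 13 (19.1% against 12.9%) and the TATA letters TATAAA in 5 (7.4% against 15.7%). No match to any of the searched letters was found for 16 genes. The motifs were searched separately and no match is known from these data to be bound. The 250 bases before the start are shown for the genes that the results below turn on, 5′ to 3′ on the gene's strand, with matches in capitals. They are Mrps17 and Mrpl50, which differed between the vehicle groups, and Mrps21 and Mrpl1, which had the smallest p for celastrol.
Mrps17, chr5:129715247-129715496, plus strand: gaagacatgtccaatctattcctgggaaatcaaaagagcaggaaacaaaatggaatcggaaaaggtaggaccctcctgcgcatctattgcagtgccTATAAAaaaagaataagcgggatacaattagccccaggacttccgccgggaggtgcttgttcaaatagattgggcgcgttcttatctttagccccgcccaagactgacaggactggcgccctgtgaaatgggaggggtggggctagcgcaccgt
Mrpl50, chr4:49521084-49521333, minus strand: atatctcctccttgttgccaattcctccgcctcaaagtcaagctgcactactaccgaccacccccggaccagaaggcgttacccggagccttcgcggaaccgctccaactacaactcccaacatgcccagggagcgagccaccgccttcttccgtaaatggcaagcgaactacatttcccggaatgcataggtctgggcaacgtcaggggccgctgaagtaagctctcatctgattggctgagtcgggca
Mrps21, chr3:95871515-95871764, minus strand: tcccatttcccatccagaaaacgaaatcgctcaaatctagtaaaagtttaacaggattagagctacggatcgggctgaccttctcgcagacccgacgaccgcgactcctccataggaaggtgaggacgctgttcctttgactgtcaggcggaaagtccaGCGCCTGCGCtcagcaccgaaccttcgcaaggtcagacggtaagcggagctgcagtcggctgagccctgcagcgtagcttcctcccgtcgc
Mrpl1, chr5:96209865-96210114, plus strand: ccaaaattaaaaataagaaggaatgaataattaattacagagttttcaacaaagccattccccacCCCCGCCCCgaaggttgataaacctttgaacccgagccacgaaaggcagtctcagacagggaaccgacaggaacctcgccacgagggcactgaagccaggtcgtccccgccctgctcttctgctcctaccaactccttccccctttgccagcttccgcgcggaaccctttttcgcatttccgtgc
The capitals mark TATAAA at position -154 from the start of Mrps17, an NRF1 match on the opposite strand at position -91 of Mrps21, and an SP match on the opposite strand at position -185 of Mrpl1. The Mrpl50 window held none of the searched letters. Mrps21 also had an ETS match after its start, outside the bases shown.

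A single vehicle array stood apart in these genes. In vehicle 6 h replicate 3 the mean over the 77 genes was 9.828, whereas the other 22 arrays lay between 9.491 and 9.622. The other vehicle arrays at 6 h had 9.580, 9.564 and 9.535. Of the 77 genes, 47 (61.0%) were highest of all 23 arrays in it, against 14.5% of all genes, and 70 were above the mean of the other vehicle arrays at 6 h, by a median of 0.21. Both subunits were high there: the large subunit averaged 9.942 there and 9.606 to 9.747 elsewhere, and the small subunit 9.639 there and 9.299 to 9.428 elsewhere.

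**Figure D1:**
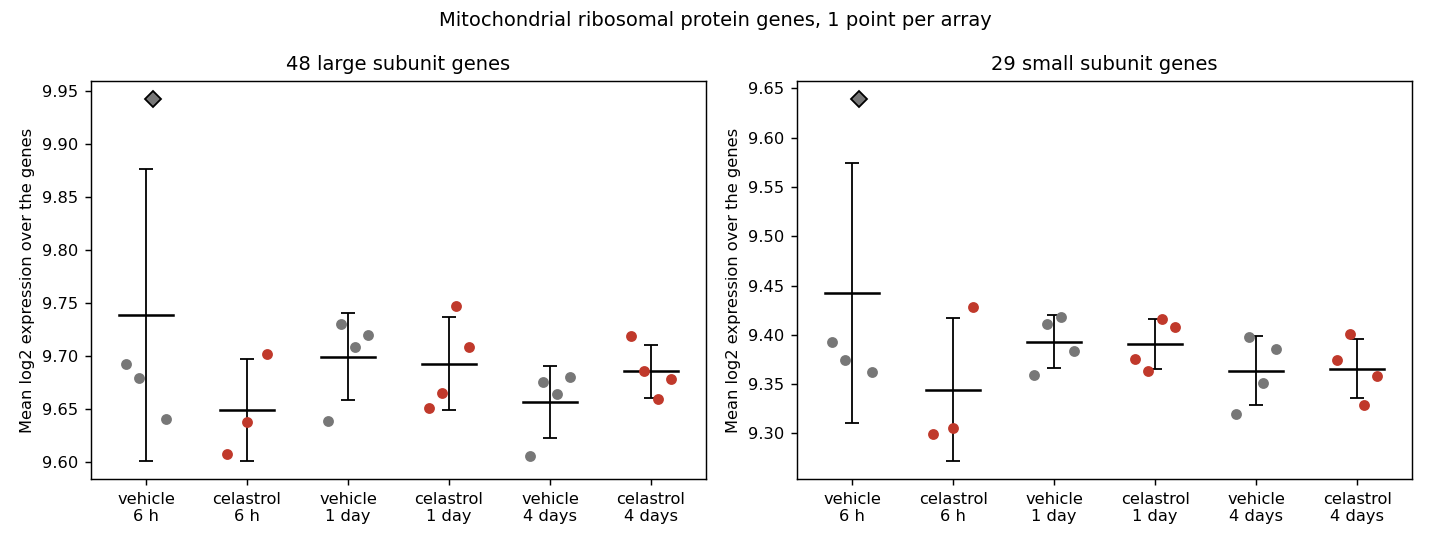
Mean log2 expression over the 48 large subunit genes (left) and the 29 small subunit genes (right), as named by their symbols. There is 1 point per array, a line at the group mean and bars of 1 SD. The diamond is vehicle 6 h replicate 3, at 9.942 and 9.639, and the vertical axes do not start at 0.

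The size of this excess differed between genes. It was largest for Mrps18c, a member of the bS18 family, with 9.88, 9.63, 10.72 and 9.48 in the 4 vehicle arrays at 6 h. Mrpl42, a mitochondria-specific large subunit protein, followed with 7.82, 7.75, 8.75 and 7.87. Mrpl22, a protein of the exit tunnel, had 8.25, 8.21, 8.87 and 8.12. In all 3 the third array was the high one, and the other 3 overlapped the remaining groups. The difference from the mean of the other vehicle arrays at 6 h exceeded 0.5 for 11 genes: Mrps18c (1.06), Mrpl42 (0.94), Mrps33 (0.89), Mrpl22 (0.68), Mrps14, Mrpl20, Mrpl23, Mrpl47, Mrpl32, Mrpl13 and Mrpl27. It was below 0 for 7 genes, with Mrpl28 (-0.14), Mrpl10 (-0.092) and Mrps2 (-0.071) the lowest. The paralogs of Mrps18c did not share its size: Mrps18a, a large subunit protein, was 0.21 above the other arrays and Mrps18b was -0.047 from them.

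**Figure D2:**
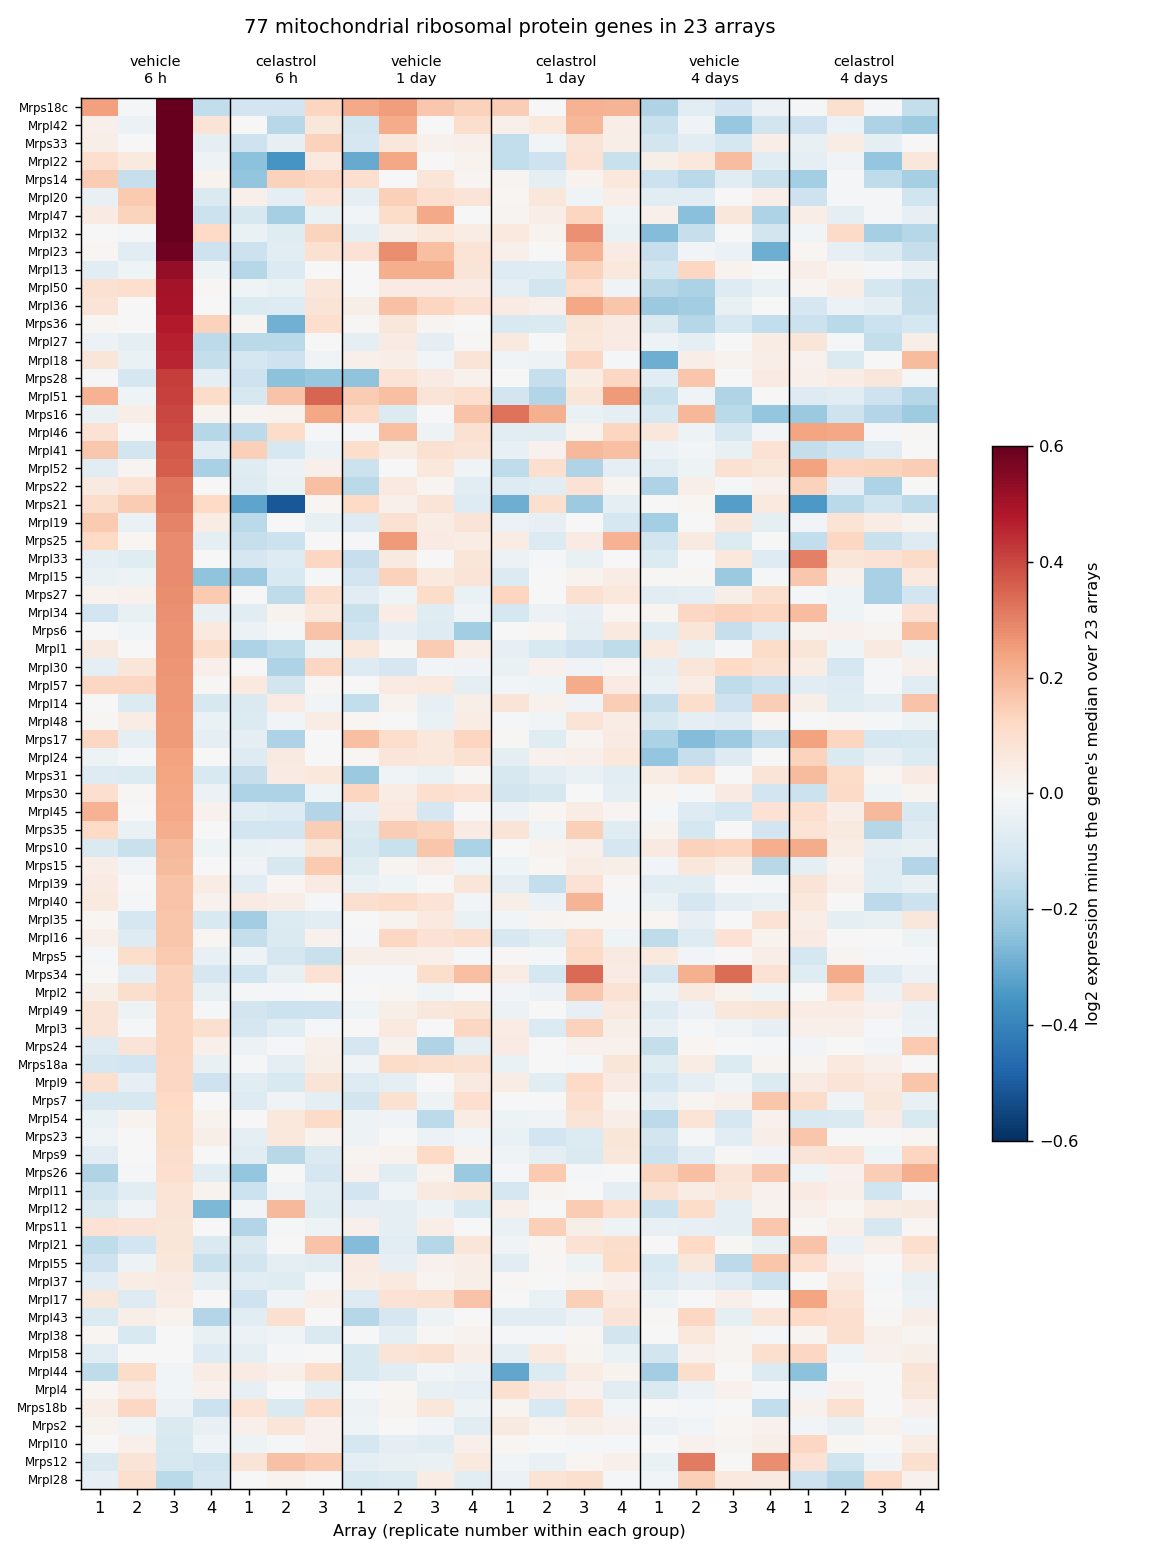
Each of the 77 genes (rows) in each of the 23 arrays (columns, by group and replicate), coloured by log2 expression minus the gene's median over all arrays, with colours saturating at 0.6 in either direction. Rows are ordered by the value in vehicle 6 h replicate 3, which is above the gene's own median in 69 of the 77.

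Other gene groups were high in the same array. The 79 respiratory chain genes averaged 11.342 there and 10.901 to 11.028 in the other arrays, and 62 of them were highest there. The 53 cytosolic ribosomal protein genes averaged 11.789 there and 11.419 to 11.543 elsewhere, with 45 highest there. The 46 small nuclear and nucleolar RNA genes, a list chosen after the values were seen, averaged 8.376 there and 7.607 to 7.915 elsewhere. Microglial markers averaged 8.873 there against 8.635 to 8.811 elsewhere, with 3 of 7 highest there, and by group they spanned 8.651 to 8.873 in vehicle and 8.72 to 8.775 in celastrol arrays at 6 h. The mean of the 8 neuronal markers was at its lowest there (11.931, against 11.982 to 12.088), although 1 of them was at its highest. The mean of the 8 astrocyte markers was also at its lowest (11.227, against 11.244 to 11.383). The 19 mitochondrial aminoacyl-tRNA synthetases averaged 9.02 there, within the 8.984 to 9.09 of the other arrays. The other lists of mitochondrial gene expression were at their highest there: translation factors averaged 9.693 (others up to 9.602), assembly genes 8.996 (up to 8.927), genes of mitochondrial DNA expression and upkeep 8.931 (up to 8.89) and the 4 ribosomal proteins under other names 10.17 (up to 9.916). In tissue RNA, fewer cells of a type and less RNA per cell cannot be told apart, and the part of these cell markers and RNA classes in the ribosomal protein values was not tested. Differences at 6 h and counts over genes are therefore given with and without it below.

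At 6 h, none of the 77 genes passed the test of celastrol against vehicle, and 64 of them had lower values with celastrol, by a median of -0.084. That count rested on the array described above: without it 45 were lower and the median was -0.016. The test was limma with Benjamini-Hochberg adjustment over all 18704 genes at 0.05, and it called 0% of all genes. The lowest adjusted p among the 77 was 0.156. Of all genes 47.2% were lower, with a median of 0.0072, and of the genes above the median level, to which 67 of the 77 belong, 65.1% were lower with a median of -0.031. At an unadjusted p under 0.05, 17 of the 77 were lower (6.22% of all genes) and 1 was higher (8.56% of all genes). Without vehicle 6 h replicate 3 these became 7 and 2, against 4.10% and 5.83% of all genes, and 52.0% of all genes were then lower. The subunits gave like counts, with 40 of 48 large and 24 of 29 small subunit genes lower, or 28 and 17 without that array. The spread of values over all genes within an array was also smaller with celastrol at 6 h (SD 1.870 to 1.917) than with vehicle (1.922 to 1.943). With this spread as a covariate 45 genes were lower and the median was -0.020. Further quantile normalization left 53 lower, with a median of -0.051, and leaving out celastrol 6 h replicate 1 gave a median of -0.045. Without the vehicle arrays high in Prl, where vehicle replicate 3 is 1 of the 2 left at 6 h, 66 were lower with a median of -0.149. Celastrol arrays were not left out on Prl in that run. The 9 pituitary markers averaged 7.796 to 8.338 in the celastrol arrays at 6 h, against 7.223 and 7.366 in the 2 vehicle arrays kept.

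**Figure D3:**
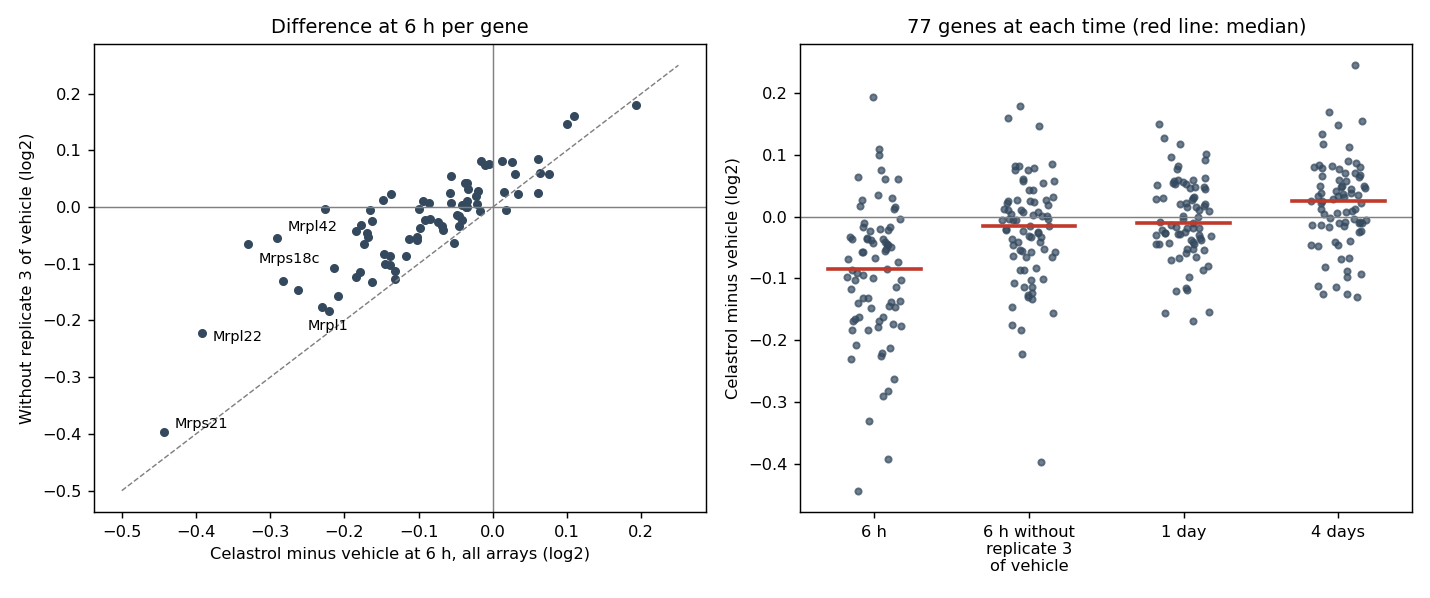
Left, the log2 difference of celastrol from vehicle at 6 h for each of the 77 genes, from all arrays (horizontal) and without vehicle 6 h replicate 3 (vertical), with a dashed line of equality. Right, the differences at each time with their medians as red lines: -0.084 at 6 h, -0.016 at 6 h without that array, -0.011 at 1 day and 0.025 at 4 days.

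Mrps21 had the smallest p at 6 h. It encodes a small subunit protein of the bacterial bS21 family. Its log2 expression was 11.63, 11.67, 11.84 and 11.64 with vehicle and 11.20, 11.01 and 11.53 with celastrol. All 3 celastrol arrays were below all 4 vehicle arrays, although the third lay much nearer to them than the other two. The difference was -0.44 ± 0.11 (SE), with an adjusted p of 0.156 by limma, and -0.40 with an adjusted p of 0.303 without vehicle replicate 3. At 1 day the groups overlapped, with 11.64, 11.55, 11.60 and 11.44 for vehicle and 11.23, 11.62, 11.30 and 11.46 for celastrol. At 4 days they also overlapped, with 11.52, 11.53, 11.19 and 11.58 against 11.18, 11.36, 11.40 and 11.36. The mean difference was below 0 at each time, -0.15 at 1 day and -0.13 at 4 days, and neither passed.

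Mrpl1, the protein of the L1 stalk through which spent tRNA leaves the ribosome, was lower at both early times without passing the adjustment. At 6 h it had 9.62, 9.56, 9.84 and 9.67 with vehicle and 9.38, 9.41 and 9.53 with celastrol. At 1 day the values were 9.63, 9.57, 9.72 and 9.61 against 9.52, 9.48, 9.44 and 9.41. The groups did not overlap at either time. The differences were -0.23 ± 0.059 (SE, adjusted p = 0.165 by limma) at 6 h and -0.17 ± 0.055 (adjusted p = 0.231) at 1 day. Without vehicle 6 h replicate 3 the difference at 6 h was -0.18 with an adjusted p of 0.317. At 4 days vehicle had 9.62, 9.52, 9.56 and 9.67, celastrol had 9.64, 9.54, 9.62 and 9.54, and the difference was -0.0093. When arrays were weighted by their quality, Mrpl1 passed at 1 day, with an adjusted p of 0.0428.

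Mrps30, which despite its symbol sits in the large subunit, had a similar course. Its values at 1 day were 7.94, 7.86, 7.92 and 7.90 with vehicle and 7.71, 7.72, 7.82 and 7.76 with celastrol, and the groups did not overlap. The difference was -0.16 ± 0.059 (SE), with an adjusted p of 0.284 by limma. At 6 h the groups overlapped (7.92, 7.82, 8.05 and 7.78 against 7.63, 7.63 and 7.79) with a difference of -0.21, or -0.16 without vehicle replicate 3, and at 4 days the difference was 0.0082.

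Among the other genes of smallest p at 6 h, Mrpl49, a mitochondria-specific large subunit protein, had 10.57, 10.47, 10.63 and 10.49 with vehicle and 10.39, 10.37 and 10.37 with celastrol. The groups did not overlap, and the difference was -0.16 ± 0.049 (SE, adjusted p = 0.181 by limma), or -0.13 without vehicle replicate 3. Mrpl45, which anchors the mitochondrial ribosome to the inner membrane, had 9.14, 8.93, 9.16 and 8.96 with vehicle and 8.86, 8.85 and 8.75 with celastrol. These groups were also apart, and the difference was -0.22 ± 0.067 (SE, adjusted p = 0.181), or -0.18 without that array. Across the 77 genes, 6 had all celastrol arrays below all vehicle arrays at 6 h (4.29% of all genes): Mrps21, Mrpl1, Mrpl49, Mrpl45, Mrps28 and Mrps11. The opposite held for 1 gene, Mrps2 (5.97% of all genes), with 10.07, 10.03, 9.96 and 10.01 against 10.08, 10.12 and 10.08, a difference of 0.076, or 0.058 without vehicle replicate 3. Without vehicle replicate 3 the 6 genes were joined by Mrpl4, and the shares of all genes were 7.56% lower and 7.60% higher.

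At 1 day the genes were divided evenly. None of the 77 passed (0.0160% of all genes did), 41 were lower and 36 higher, and the median difference was -0.011 (45.9% of all genes lower, median 0.0086). At an unadjusted p under 0.05, Mrpl1 and Mrps30 were lower (4.19% of all genes) and Mrpl21, a large subunit protein, was higher (8.31% of all genes). Mrpl21 had 8.57, 8.77, 8.66 and 8.91 with vehicle and 8.81, 8.84, 8.92 and 8.94 with celastrol, and its difference was 0.15 ± 0.070 (SE, adjusted p = 0.383 by limma). Mrpl12, a stalk protein that also binds the mitochondrial RNA polymerase, had 10.10, 10.08, 10.12 and 10.05 against 10.17, 10.14, 10.30 and 10.24. Its groups did not overlap, and the difference was 0.13 ± 0.066 (SE, adjusted p = 0.439). Counting all genes apart in this way, 3 were lower (4.56% of all genes) and 2 were higher (6.44% of all genes).

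At 4 days again none of the 77 passed (0% of all genes), and 47 were higher and 30 lower with a median of 0.025 (50.3% of all genes lower, median -0.00053). The 5 genes at an unadjusted p under 0.05 were all higher, against 2.73% of all genes higher and 4.57% lower. The 5 whose groups did not overlap were also all higher (1.87% of all genes, with 1.63% lower): Mrps17, Mrpl9, Mrpl33, Mrpl37 and Mrpl52. Large subunit genes were higher in 34 of 48 and small subunit genes in 13 of 29, a difference that was not tested. Mrpl9 had 8.976, 9.029, 9.063 and 9.001 with vehicle and 9.13, 9.16, 9.14 and 9.25 with celastrol, a difference of 0.15 ± 0.056 (SE, adjusted p = 0.493 by limma). Mrps9, a protein of the small subunit head, had 8.48, 8.55, 8.62 and 8.59 against 8.69, 8.70, 8.59 and 8.74, which overlapped. Mrpl33, a small protein of the large subunit, had 8.70, 8.77, 8.84 and 8.70 against 9.08, 8.85, 8.86 and 8.89, a difference of 0.17 with an adjusted p of 0.612.

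The sign of the difference for Mrps17, a small subunit protein of the uS17 family, was not the same at every time. The difference was -0.15 at 6 h (-0.084 without vehicle 6 h replicate 3), -0.12 at 1 day and 0.25 ± 0.073 (SE) at 4 days, with an adjusted p of 0.367 by limma at 4 days. The celastrol arrays had 8.19, 8.06 and 8.25 at 6 h, 8.25, 8.18, 8.26 and 8.30 at 1 day, and 8.49, 8.38, 8.14 and 8.15 at 4 days. The vehicle arrays had 8.37, 8.19, 8.50 and 8.19 at 6 h, 8.43, 8.35, 8.31 and 8.38 at 1 day, and 8.06, 7.99, 8.03 and 8.11 at 4 days. At 4 days the vehicle group was thus the low one, and 2 of the 4 celastrol arrays were within the range of celastrol at 6 h. The F test of whether the celastrol effect differed between times gave Mrps17 an adjusted p of 0.134 (0.135 without that array), and none of the 77 passed it (0.0588% of all genes did). At an unadjusted p under 0.05 it found 8 of the 77, against 13.0% of all genes. Mrpl45, Mrps9 and Mrps12 followed Mrps17, with adjusted p of 0.204, 0.206 and 0.275 by limma, or 0.293, 0.220 and 0.337 without that array. Averaged over the 3 times, none of the 77 passed (0% of all genes) and 53 were lower with a median of -0.021, against 46.7% of all genes. Without vehicle 6 h replicate 3, 37 were lower and the median was 0.0038.

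The vehicle groups differed between times in 2 of the 77 genes, Mrps17 and Mrpl50, against 8.83% of all genes, a share below that background with all arrays. At an unadjusted p under 0.05 there were 17 of 77, against 28.5% of all genes. Mrps17 passed with an adjusted p of 0.0167 by limma, and its 4 vehicle arrays at 4 days (mean 8.05 ± 0.049, SD, n = 4) lay below the other 8 vehicle arrays, which ran from 8.19 to 8.50. Leaving out vehicle 4 days replicate 2, one of the arrays high in Prl, gave 0.059, and no other single array removed the call. With the spread over all genes as a covariate its adjusted p was 0.573. Mrpl50, a mitochondria-specific large subunit protein, had 10.05, 10.05, 10.45 and 9.96 at 6 h, 9.954, 10.003, 10.002 and 10.002 at 1 day, and 9.79, 9.76, 9.88 and 9.91 at 4 days. The 4-day arrays were below all the others, and its adjusted p was 0.0448 by limma, or 0.0538 without vehicle 6 h replicate 3. Without that array 4 genes passed: Mrps17, Mrpl23, Mrpl36 and Mrps18c, against 8.12% of all genes. Mrpl36, another large subunit protein, had an adjusted p of 0.0706 with all arrays and 0.0384 without that array. Leaving out single arrays gave 0 genes without vehicle 4 days replicate 2, 5 without vehicle 6 h replicate 2, and 4 without vehicle 6 h replicate 4. It gave 1 gene without any one of the other vehicle arrays at 1 day and 4 days, without celastrol 6 h replicate 1, and without celastrol 1 day replicates 1 or 4. Leaving out the 4 vehicle arrays high in Prl left 2 at 6 h and 3 at each later time. In that run 9 of the 77 genes passed, against 7.44% of all genes, a share above the background. Vehicle 6 h replicate 3, the array that stood apart, was then 1 of the 2 at 6 h. Its part in this count was not tested.

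**Figure D4:**
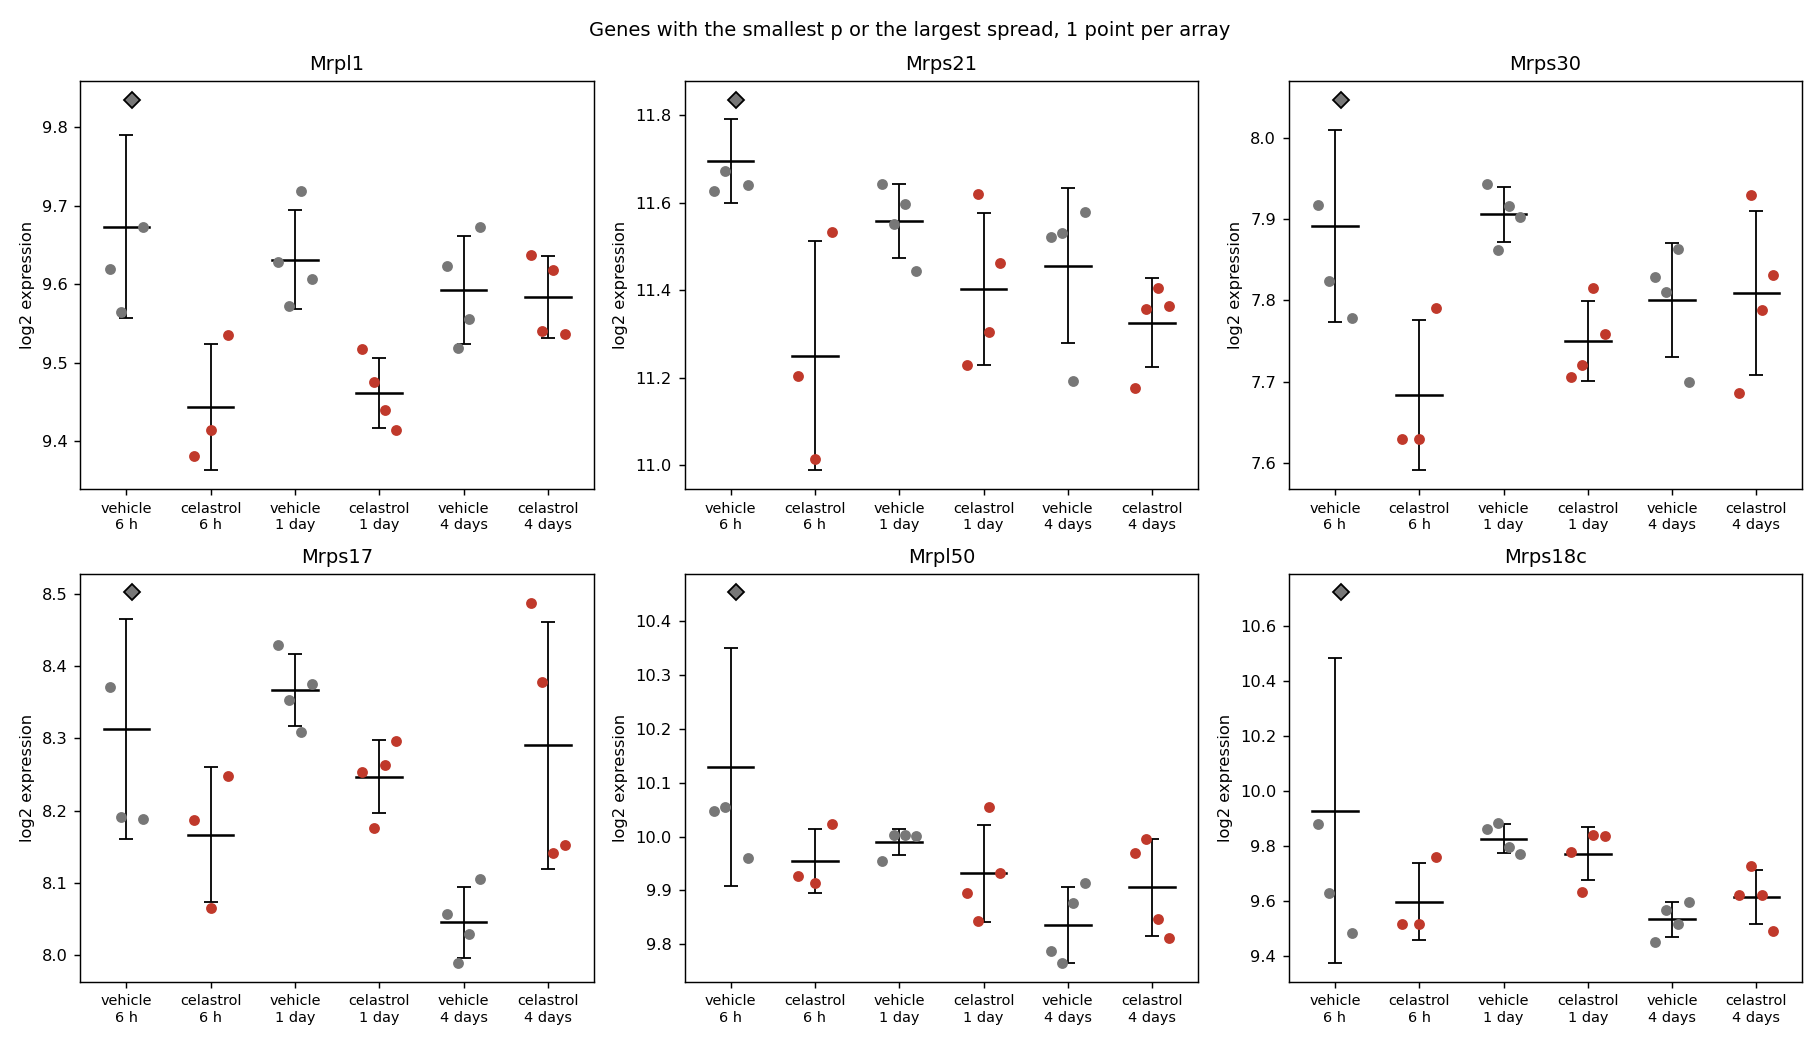
Log2 expression of 6 genes, with 1 point per array (grey vehicle, red celastrol), a line at the group mean and bars of 1 SD. The diamond is vehicle 6 h replicate 3, the highest vehicle array at 6 h in all 6 panels, and the 4 vehicle arrays at 4 days are the lowest vehicle arrays for Mrps17. The vertical axes differ and do not start at 0.

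By the order of group means, vehicle was highest at 6 h in 46 of the 77 genes, at 1 day in 15 and at 4 days in 16. Without vehicle 6 h replicate 3 these counts were 21, 34 and 22. In the celastrol groups 8 genes were highest at 6 h, 35 at 1 day and 34 at 4 days. None of the 77 differed between the celastrol groups by the F test (0.246% of all genes did, and 1.07% without vehicle 6 h replicate 3), and the lowest adjusted p was 0.185, for Mrps9. Mrps16, a small subunit protein whose loss impairs mitochondrial translation in people, had 9.28, 9.29 and 9.50 at 6 h, 9.59, 9.48, 9.23 and 9.21 at 1 day, and 9.04, 9.14, 9.09 and 9.05 at 4 days, with an adjusted p of 0.193 by limma. All its 4-day celastrol arrays were below those of the earlier times. Mrpl52, a mitochondria-specific large subunit protein, had 9.59, 9.63 and 9.69, then 9.51, 9.76, 9.49 and 9.61, then 9.90, 9.80, 9.80 and 9.81, so its 4-day arrays were above the rest, with an adjusted p of 0.231.

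None of the 19 genes chosen for textbook roles passed any test in the main fit. In other runs on all arrays, the vehicle groups differed in Mrps18a with array weights and in Mrps36 with the replicate block. Among the stalk proteins of the GTPase centre, Mrpl10 differed by 0.017, 0.045 and 0.025 from vehicle at 6 h, 1 day and 4 days, and Mrpl11 by -0.049, -0.032 and -0.069. Without vehicle 6 h replicate 3 the 6 h values were -0.0060 for Mrpl10, of the opposite sign, and -0.0145 for Mrpl11. Mrpl2 and Mrpl3, core proteins of the large subunit, had -0.067 and -0.13 at 6 h, or -0.041 and -0.11 without that array. At 6 h Mrpl3 had 10.43, 10.34, 10.48 and 10.44 with vehicle and 10.25, 10.28 and 10.34 with celastrol. Mrpl58, a peptidyl-tRNA hydrolase that rescues stalled ribosomes, stayed between 9.81 and 10.04 in every array, and its differences ran from -0.034 to 0.034, with 0.015 at 6 h, or 0.027 without that array. Mrps12, the protein of the decoding centre, had the highest difference of celastrol from vehicle at 6 h among the 77. Its values were 8.22, 8.38, 8.21 and 8.19 with vehicle and 8.38, 8.48 and 8.46 with celastrol. The difference was 0.19 ± 0.075 (SE, adjusted p = 0.249 by limma), or 0.18 without that array. Its vehicle arrays at 4 days were 8.26, 8.61, 8.30 and 8.58, so the spread between vehicle arrays there exceeded that difference. Mrps2 varied least within groups, with a residual SD of 0.030, and Mrps18c most, with 0.25, against a median of 0.0931 for the 77 and 0.0942 for all genes. Mrps7, Mrps22, Mrps27, Mrps34 and Mrpl44 had overlapping groups at every time. Mrps36 had -0.21 at 6 h, -0.11 without vehicle 6 h replicate 3, and -0.038 at 1 day.

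For 8 genes the array holds a further probe set: Mrpl23, Mrpl27, Mrpl41, Mrpl47, Mrpl51, Mrps33, Mrps36 and Mrps5. The means given here include vehicle 6 h replicate 3, and none were made without it for the further probe sets. Mrps33 had a mean at 6 h of 10.30 with vehicle and 10.08 with celastrol in the probe set used and 10.10 and 9.90 in the other. Its difference in the probe set used was -0.23 with all arrays and -0.0037 without that array. The pairs of Mrpl51, Mrpl41, Mrpl47 and Mrps5 differed in size or direction: Mrpl51 went from 10.15 to 10.11 at 6 h in the one used and from 9.88 to 9.67 in the other, and Mrpl41 from 9.66 to 9.57 in the one used and from 8.56 to 8.63 in the other. Mrpl47 went from 8.28 to 8.00 in the one used and from 7.66 to 7.69 in the other, and Mrps5 from 10.14 to 9.999 and from 9.64 to 9.58. Without vehicle 6 h replicate 3 the differences in the probe sets used were 0.042 for Mrpl51 and 0.0072 for Mrpl41. Those of Mrpl47 and Mrps5 were then -0.13 and -0.10. RefSeq lists pseudogenes of Mrpl23, Mrpl27, Mrpl48 and Mrps36, so the signal of these 4 is uncertain. The position of the probe sets in the genome was not checked for any gene, so which locus a set measures rests on the platform annotation.

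The other genes of mitochondrial gene expression gave no call for celastrol at any time. They came from lists made with earlier results of these data known, and those named for celastrol had the smallest p in each list. Of 15 translation factors 13 were lower at 6 h with a median of -0.094, and 11 were lower with a median of -0.070 without vehicle 6 h replicate 3. Guf1, a GTPase related to bacterial LepA, had the smallest p of these, with a difference of -0.19 ± 0.041 (SE, adjusted p = 0.148 by limma) and the same -0.19 without that array (adjusted p = 0.269). Its vehicle groups differed between times (adjusted p = 0.00457). Mtrf1l, a release factor, had -0.24 at 6 h, or -0.18 without it. Of 19 mitochondrial aminoacyl-tRNA synthetases 10 were lower, or 15 without it, with Nars2 at -0.16 (-0.14 without it) and Iars2 at -0.14 (-0.15 without it). Of 25 genes of ribosome assembly and ribosomal RNA modification 19 were lower, or 17 without that array, and Fastkd2, an RNA-binding protein needed for the large subunit, had -0.27 (adjusted p = 0.193), or -0.19 without that array. Mettl17, an assembly factor of the small subunit, had 0.14 at 4 days (adjusted p = 0.433). With all arrays it was the only gene of these lists that differed between the celastrol groups (adjusted p = 0.0275 by the limma F test). Of all genes, 0.246% passed that test. Of 16 genes of mitochondrial DNA transcription, RNA processing and upkeep 12 were lower, or 11 without that array. Prorp, the nuclease of mitochondrial RNase P, had -0.25 (adjusted p = 0.181), or -0.24 without it, and Tfb2m, a mitochondrial transcription factor, had -0.21, or -0.16 without it. The 4 ribosomal proteins under other names included Ptcd3, with -0.14 at 6 h, or -0.075 without that array, and Gadd45gip1, with 0.12 at 4 days. Between the vehicle groups, where 8.83% of all genes passed, Guf1 passed among the 15 translation factors, Iars2 among the 19 synthetases, Tfb2m among the 16 genes of mitochondrial DNA expression and upkeep, Ptcd3 among the 4 under other names, and none among the 25 assembly genes. Without vehicle 6 h replicate 3 these 4 passed together with Fars2, Pars2 and Mrm2, against 8.12% of all genes.

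The respiratory chain, whose core parts these ribosomes make, showed the same dependence on the single array. At 6 h 71 of its 79 genes were lower with celastrol with a median of -0.084, and 40 without vehicle 6 h replicate 3 with a median of -0.0027. Among the 53 cytosolic ribosomal protein genes, 46 had lower values, with a median of -0.0925, and 23 without that array with a median of 0.00535. At 1 day 53 of 79 and 40 of 53 were higher, and none of either list passed at any time. Of all genes, 47.2% were lower at 6 h, or 52.0% without that array, and 45.9% were lower at 1 day.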

How the data were processed

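RNA of 23 samples was hybridised to 23 Affymetrix whole-transcript mouse arrays. Per the submitters' processing notes, the authors made the deposited log2 values per probe set with RMA. No source used here states the software version or a filter. RMA as usually run brings arrays to one distribution, and then a shift of most genes would not be seen. Of 23492 probe sets, 20228 named 1 gene through the platform annotation, with 20182 under a current RefSeq symbol, 1399 named several and 1865 named none. Only the first kind was used, with the highest-mean probe set for the 809 genes that had several, leaving 18704 genes and no filter on level.

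The test was limma 3.58.1 in R 4.3.3: 6 group means fitted to all 23 arrays, eBayes without trend (17 residual and 5.424 prior degrees of freedom), and Benjamini-Hochberg adjustment over 18704 genes at 0.05. Celastrol was compared with vehicle at each time and over the mean of the 3 times, and F tests asked whether its effect, the vehicle groups or the celastrol groups differed between times. The fit was tested on simulated data. Genes named were those past 0.05, the 4 of smallest p in each comparison by time and each F test, those of highest and lowest level and largest spread, 19 with textbook roles, and 2 per partner list. Genes named outside these, for the size of their value in 1 array or for groups that did not overlap, were chosen after their values were seen. The genes and lists were chosen with earlier results of these data known. The labels used here state no pairing by replicate number, and the main test used none. Residuals of the 55 same-numbered pairs had a median correlation of -0.00733 (-0.222 to 0.258), with 9 pairs above 0.1. Other pairs had a median of 0.0019. These medians cannot exclude a link within some pairs.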

Additional observations from a re-analysis of the deposited data

Results flagged for a closer look

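Dixon's test was applied to each group of 4 arrays for 23 items, the gene means and some of the named genes above, and picked out 11 of 115 groups. Chance alone gives about 1 in 20 for independent items not chosen from the data. Some of these genes were named for a large spread or small p in these data, and the means overlap. That rate therefore does not apply to this count. Of the 11, 4 were vehicle 6 h replicate 3: the mean over all 77 genes (9.828, others 9.535 to 9.580), the mean over the small subunit genes (9.639, others 9.362 to 9.393), Mrpl36 (10.48, others 9.98 to 10.07) and Mrpl42 (8.752, others 7.75 to 7.87).

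The other 7 were spread over different arrays. Mrpl22 was high in celastrol 1 day replicate 3 (8.234, others 8.00 to 8.03), and Mrpl50 was low in vehicle 1 day replicate 1 (9.954, others 10.002 to 10.003). Mrpl52 was high in celastrol 4 days replicate 1 (9.905, others 9.80 to 9.81). Mrps12 was high in vehicle 6 h replicate 2 (8.383, others 8.19 to 8.22) and in vehicle 1 day replicate 4 (8.364, others 8.25 to 8.26). Mrps21 was low in vehicle 4 days replicate 3 (11.192, others 11.52 to 11.58), and Mrps9 was high in vehicle 1 day replicate 3 (8.732, against 8.63 in each of the others).

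Mrps17 differed in direction between times: all celastrol arrays were below all vehicle arrays at 1 day and above them at 4 days. The limma F test of that difference over the 3 times gave an adjusted p of 0.134, which did not pass.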

How the results depend on the processing

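Celastrol moved none of the 77 genes past 0.05 at 6 h, at 4 days, over the mean of the times or between times under any alternative run, and at 1 day the count was 0 except with array weights, where 1 gene (Mrpl1) passed. The count of genes that differed between vehicle groups, 2, was 0 with each array's spread over genes as a covariate, 1 without genes below the median level, with further quantile normalization or with only the groups compared, 6 with array weights, 9 without the vehicle arrays high in Prl, and 0 to 5 when single arrays were left out. With the replicate block, which treats same-numbered samples as linked although the labels state no pairing, it was 4 and no celastrol call changed. In the run without the vehicle arrays high in Prl, vehicle 6 h replicate 3 was 1 of the 2 vehicle arrays left at 6 h. Mrpl50 lost its call in 16 of 34 alternatives (highest adjusted p 0.291) and Mrps17 in 2 of 33 (0.059 and 0.573). The cause of these changes was not tested. The median difference at 6 h stayed below 0, from -0.116 to -0.016 when single arrays were left out, the second without vehicle 6 h replicate 3, and from -0.149 to -0.020 otherwise. The median over the 77 genes changed sign in 7 of 35 alternatives at 1 day, 2 of 35 at 4 days and 2 of 34 over the mean of the times. With 3 or 4 arrays per group the median confidence half-width was 0.134 to 0.145, for intervals not adjusted over genes. Larger differences also missed the adjusted threshold. At 6 h Mrps21 (-0.44) had an adjusted p of 0.156 and Mrpl22 (-0.39) had 0.228, both by limma with all arrays. The run on simulated data recorded what share of changes of a few known sizes the adjusted test recovered, which is not given here. The smallest difference that the adjusted test could detect for these genes was not derived from it. Array weights, covariates, filters and normalizations were run on all comparisons; the separate fit of only the groups compared does not apply to the mean of the times or to the F test of the celastrol effect, nor the pooled vehicle control to the F tests.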
